A study of Mus musculus with 12 samples.

Results

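The genes described here are 37 targets of the nuclear receptor PPAR alpha and enzymes of fatty acid oxidation, picked by gene symbol from a table of 16970 genes measured in mouse liver. All 37 were in the table, and all 37 passed the filter on low values that left 10805 genes to test. To pass, a gene needed 3 or more of the 12 libraries with an FPKM of 1 or above. FPKM is a read count divided by the length of the gene and the depth of the library, so levels can be compared between genes; between libraries they also depend on the scaling, as given below. Each of the 4 groups held 3 libraries of polyA RNA from whole liver. In the group BDL the bile duct had been ligated for 7 days, and in BDL_H the same ligation was combined with HDCA (hyodeoxycholic acid, a secondary bile acid). It was given at 100 mg/kg for 4 days, starting once 3 days had passed since the operation. The other 2 groups are labelled MDR and MDR_H. They are taken here as the Abcb4-/- mice that the series description names, aged 60 days at the start. MDR was without HDCA and MDR_H had HDCA at 100 mg/kg for 21 days. ABCB4 moves phosphatidylcholine into bile, and mice without it develop bile duct injury. All groups came from mice described as cholestatic, that is, with impaired bile flow or bile formation, and livers of healthy mice were not analysed here. The labels name no strain, sex, vehicle or separate animals, so the p-values reflect only how much these libraries varied within a group, possibly for technical reasons. No age is given for the ligated mice, so whether age differed between the models is not known. The models differ in genotype, surgery and length of HDCA treatment at once and, by the Y-linked genes given below, almost wholly in sex, and these cannot be told apart.

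PPAR alpha is a transcription factor of hepatocytes that binds fatty acids and their derivatives. It pairs with RXR on DNA and raises the genes that take up, activate and burn fatty acids, which is how the liver fuels itself and makes ketone bodies during fasting. Long-chain fatty acids enter mitochondria on carnitine and are shortened there by repeated cycles of beta-oxidation. Very long chains start in peroxisomes, and the CYP4A enzymes oxidise the far end of the chain in the endoplasmic reticulum. Cyp4a10 and Cyp4a14 are among the most responsive PPAR alpha targets in mouse liver.

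Abcb4 itself was at 52.8, 151.9 and 167.8 FPKM in BDL and 160.5, 72.1 and 178.4 in BDL_H. It was at 181.3, 150.1 and 161.8 FPKM in the libraries labelled MDR and 165.3, 154.5 and 129.1 in those labelled MDR_H, so its level was not lower in the groups taken as the knockout, and each direction below rests on the titles. Reads recovered from the FPKM steps came to 34260782 to 40427855 per library. Hepatocytes define liver, and the summed FPKM of 6 of their markers was 44656 to 55691 in the 6 libraries of the ligation model and 29260 to 46058 in the 6 labelled MDR or MDR_H. Of the 6, Alb and Apoa1, which made up most of the sum, were lower in MDR than in BDL without overlap, while Ttr, Serpina1a, Cps1 and Tat overlapped. The summed markers of cholangiocytes, macrophages and neutrophils overlapped between BDL and MDR. Their BDL and MDR medians were 239.8 and 334.2, 301.2 and 311.9, and 30.2 and 21.5 FPKM. The summed markers of 4 other cell classes were higher in MDR than in BDL without overlap. Their medians in BDL and MDR were 68.4 and 123.2 FPKM for endothelial cells and 87.6 and 285.7 for stellate cells and fibroblasts. For lymphocytes they were 2.24 and 6.37, and for erythroid cells 195.0 and 406.7. Among the single genes of these 4 sums, Cdh5, Stab2, Lyve1, Col1a1, Acta2, Cd3g, Ms4a1 and Alas2 overlapped between MDR and BDL. The other genes of these 4 sums were higher in MDR without overlap. The sum of 4 Y-linked genes was 16.1 to 19.6 FPKM in the ligation model, 20.1 FPKM in MDR replicate 1 and at most 0.016 FPKM in the other 5 libraries. BDL replicate 1 and BDL_H replicate 2 stood apart from the rest. The median log2(FPKM + 1) of the tested genes was 2.485 and 2.56 in these libraries, against 2.805 to 3.056 in the other 10. The part of these differences in the results below was not tested, except where values without a library are given.

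Between untreated livers, 11 members were higher on the FPKM scale in the libraries labelled MDR than in BDL and 0 were lower. After median-of-ratios scaling, which sets each library by its median ratio to a common reference, or quantile normalization, which gives all libraries 1 distribution, 1 of the 11, Bdh1, was still called. The 11 were Ppara itself, the fatty acid uptake and activation genes Cd36 and Acsl1, 5 enzymes of the mitochondrial spiral, 2 genes of its electron transfer and the ketone body enzyme Bdh1. Their differences ran from 0.39 to 1.29 on the log2(FPKM + 1) scale. Of all 10805 genes tested, 16.2% were called at a limma adjusted p under 0.05, 15.1% higher and 1.07% lower, so that 93.4% of the calls were higher, against 56.8% after median-of-ratios scaling and 58.2% after quantile normalization. An unadjusted p under 0.05 was reached by 20 of the 37 members and 34.3% of all genes. The median of the members was 0.48 and that of all genes 0.25, so the members' median lay 0.225 above that of the whole table. Under HDCA, 7 of these 11 were called again and no others, where 8.29% of all genes were called, 7.36% higher and 0.935% lower, and the medians were 0.41 for the members and 0.20 for all genes. In a bulk sample, fewer cells of a type and less RNA per cell cannot be told apart.

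**Figure D1:**
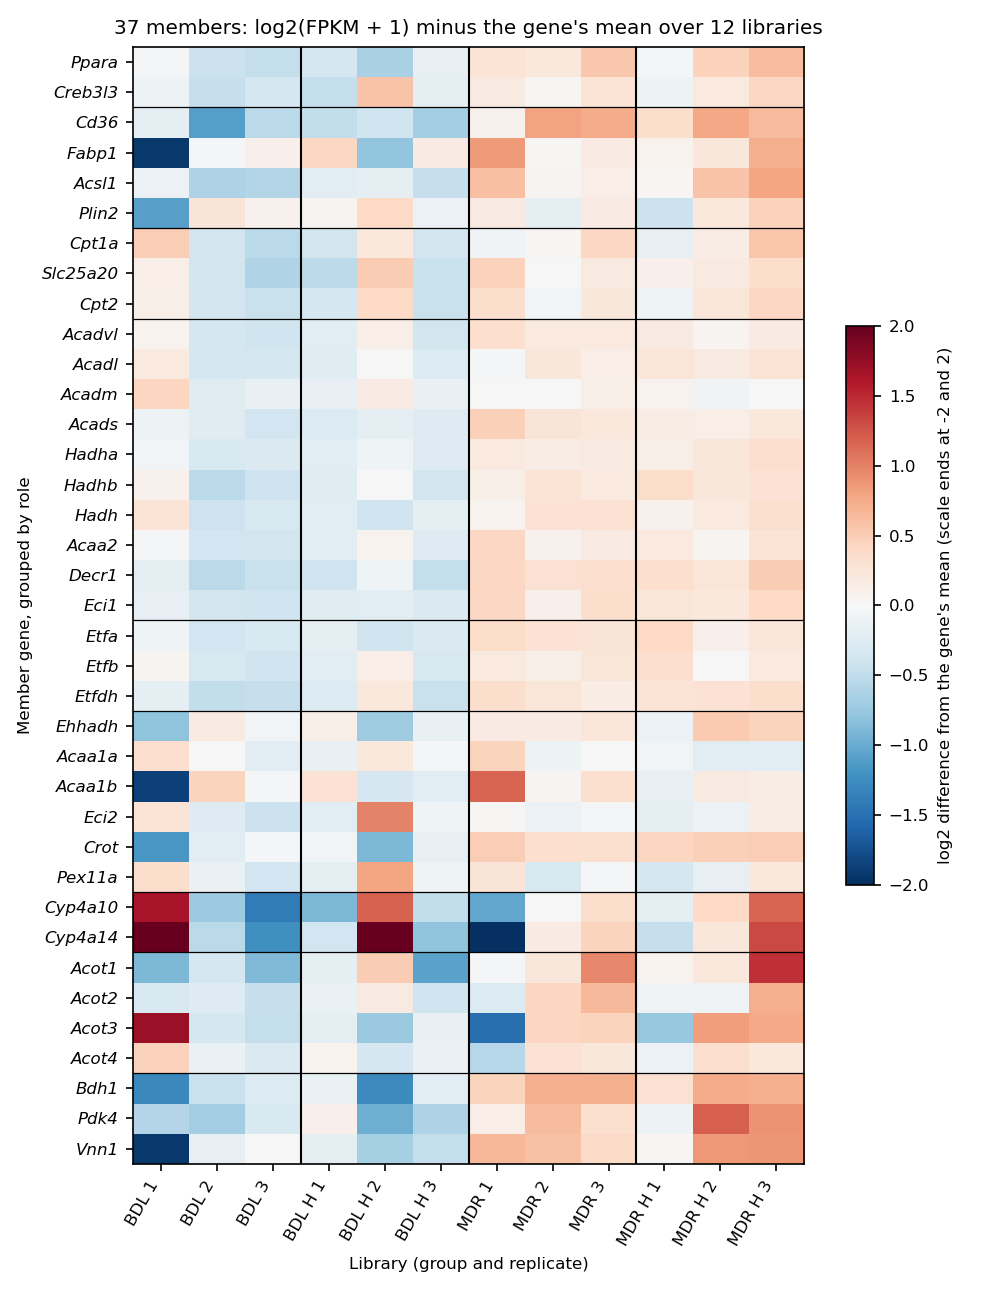
Each row is 1 of the 37 members, grouped by role from the regulators at the top to other targets at the bottom, and each column 1 of the 12 libraries. The colour is the log2(FPKM + 1) value minus the gene's mean over all libraries. Most mitochondrial members are red in the 6 libraries labelled MDR or MDR_H. Most are blue in the ligation libraries other than BDL replicate 1 and BDL_H replicate 2. In BDL replicate 1 and BDL_H replicate 2 the mitochondrial members are of both colours, and Cyp4a10 and Cyp4a14 are deepest red.

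Among the regulators, Ppara was at 13.4, 10.0 and 9.68 FPKM in BDL, 10.7, 8.48 and 12.2 in BDL_H, 16.9, 16.2 and 20.6 in MDR and 13.6, 19.5 and 21.8 in MDR_H. All 6 libraries labelled MDR or MDR_H lay above all 6 of the ligation model. The group means were 11.0 ± 2.09 FPKM in BDL and 17.9 ± 2.36 in MDR (SD, n = 3), a log2 difference of 0.66 ± 0.19 (SE, adjusted p = 0.0422). With HDCA the difference was 0.74 ± 0.19 (adjusted p = 0.044). Creb3l3, a membrane-bound transcription factor that acts with PPAR alpha in fasting, was at 104, 81.1 and 87.4 FPKM in BDL, 79.7, 165 and 98.3 in BDL_H, 127, 114 and 136 in MDR and 104, 128 and 149 in MDR_H. The untreated groups did not overlap for Creb3l3, but the difference of 0.47 ± 0.23 was not called (adjusted p = 0.18).

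The 4 genes of uptake, binding, activation and storage were led by Cd36, which encodes a fatty acid transporter and scavenger receptor of the cell surface. Its values were 23.2, 11.8 and 17.9 FPKM in BDL, 18.5, 19.9 and 16.2 in BDL_H, 28.3, 46.9 and 45.2 in MDR and 34.0, 45.9 and 41.8 in MDR_H. The ligation model did not reach the lowest MDR library, and the difference was 1.16 ± 0.24 without HDCA (adjusted p = 0.0118) and 1.11 ± 0.24 with it (adjusted p = 0.0252). Acsl1 encodes the main long-chain acyl-CoA synthetase, which activates fatty acids for oxidation. Acsl1 was at 57.1, 39.9 and 40.6 FPKM in BDL, 52.9, 54.1 and 44.4 in BDL_H, 93.7, 64.2 and 67.5 in MDR and 63.7, 92.5 and 107 in MDR_H. It was called without HDCA (0.70 ± 0.22, adjusted p = 0.0494) and not with it (0.76 ± 0.22, adjusted p = 0.0531), although both pairs of groups were free of overlap. Plin2, the main coat protein of hepatocyte lipid droplets, had means of 131 ± 55.7 FPKM in BDL and 151 ± 20.6 in MDR and was not called (adjusted p = 0.521).

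Fabp1, the liver fatty acid binding protein that also carries ligands to PPAR alpha, was the most abundant member. It read 451, 1690 and 1848 FPKM in BDL, 2299, 999 and 1930 in BDL_H, 3127, 1752 and 1943 in MDR and 1803, 2027 and 2857 in MDR_H. BDL replicate 1 and BDL_H replicate 2 were the lowest of the 12, the groups overlapped, and the untreated difference of 0.97 ± 0.50 was not called (adjusted p = 0.189).

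The DNA before a RefSeq start of Fabp1 and of Cd36 is shown because both are textbook PPAR alpha targets at very different levels. Fabp1 was also the only member with a whole match to the element the receptor binds. That element is a direct repeat of a hexamer with 1 base between (DR1), searched on both strands as AGGNCA, any 1 base and AGGNCA again, within the 250 bases before each RefSeq start. Of the 37 members, 32 had a promoter in the RefSeq set for GRCm38.p6, and 1 of the 32 (3.12%) held a match, against 111 of all 32851 promoters (0.338%). The half-site AGGTCA, which is part of some DR1 matches, was in 8 of the 32 (25.0%), namely Acadm, Acadvl, Acot4, Cd36, Cpt1a, Creb3l3, Fabp1 and Plin2, against 14.0% of all promoters. Members were counted by gene, with a match in any of their 36 promoters, and the whole set by promoter. The shares are therefore not like for like, and those of the members come out higher for it. A match is a description of the letters and not a measured site. The 2 stretches are written 5′ to 3′ on the strand of the gene, with the match in capitals, which reads as the reverse complement of those searched. The Fabp1 match lies 67 to 55 bases before the start in RefSeq, and the stretch ends where an annotated exon begins. The Cd36 half-site lies 228 to 223 bases before the RefSeq start used. That start is inside the GENCODE gene model of Cd36 (17781690 to 17888801, minus strand), which begins at 17888801, so the Cd36 stretch is not the DNA before the whole gene.
Fabp1, chr6:71199629-71199826, plus strand: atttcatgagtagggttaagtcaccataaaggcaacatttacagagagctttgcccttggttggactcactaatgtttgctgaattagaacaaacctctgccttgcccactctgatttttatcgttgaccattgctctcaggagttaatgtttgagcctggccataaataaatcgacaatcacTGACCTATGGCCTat
Cd36, chr5:17835897-17836146, minus strand: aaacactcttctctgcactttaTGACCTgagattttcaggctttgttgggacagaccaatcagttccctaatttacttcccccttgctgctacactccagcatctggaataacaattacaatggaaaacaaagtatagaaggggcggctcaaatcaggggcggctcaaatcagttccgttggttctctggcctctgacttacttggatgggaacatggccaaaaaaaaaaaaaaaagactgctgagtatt

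None of the 3 carnitine shuttle genes was called in either comparison of models. Cpt1a, whose product sits in the outer mitochondrial membrane and sets the rate of entry, had means of 71.7 ± 29.3 FPKM in BDL and 82.9 ± 15.2 in MDR. Slc25a20, the carnitine-acylcarnitine carrier of the inner membrane, had 41.3 ± 11.4 and 57.6 ± 9.39 FPKM, and Cpt2, which hands the chain back to coenzyme A, had 40.5 ± 9.33 and 53.4 ± 7.50 FPKM. Their untreated differences were 0.26, 0.49 and 0.40 (adjusted p from 0.208 to 0.507), and the groups overlapped for each.

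The untreated log2 difference was above 0 for all 10 mitochondrial beta-oxidation genes (on the median-of-ratios scale described below not for Acadl and Acadm, and on the quantile scale not for Acadm), and 5 were called: Acads, Hadha, Acaa2, Decr1 and Eci1. Under HDCA 3 were called, Hadha, Decr1 and Eci1. The 4 acyl-CoA dehydrogenases take the first step, each for its own chain length. Acads, for short chains, was at 63.0, 57.1 and 51.5 FPKM in BDL, 55.9, 59.2 and 56.6 in BDL_H, 94.8, 80.9 and 78.6 in MDR and 75.2, 74.0 and 78.2 in MDR_H. Every library labelled MDR or MDR_H was above every ligation library, and the untreated difference was 0.56 ± 0.11 (adjusted p = 0.00963). With HDCA the difference for Acads was 0.40 ± 0.11 (adjusted p = 0.0503).

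The dehydrogenase for medium chains did not follow. Acadm had means of 169 ± 45.0 FPKM in BDL and 168 ± 8.48 in MDR, a log2 difference of 0.02 (95% interval from -0.35 to 0.39). BDL replicate 1, at 221 FPKM, lay above the MDR range of 163 to 178. BDL replicates 2 and 3, at 139 and 149 FPKM, lay below that range. Acadvl, for very long chains, had 122 ± 22.8 and 167 ± 9.91 FPKM and no overlap between the untreated groups, with a difference of 0.46 that was not called (adjusted p = 0.0635). Acadl, for long chains, had 68.1 ± 15.9 and 81.4 ± 7.28 FPKM (adjusted p = 0.228).

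Hadha and Hadhb encode the 2 subunits of the trifunctional protein, which carries out the last 3 steps on long chains. Hadha was at 112, 93.6 and 95.0 FPKM in BDL, 99.6, 110 and 96.3 in BDL_H, 134, 129 and 132 in MDR and 125, 135 and 146 in MDR_H. The groups were narrow and did not overlap, and the differences were 0.39 ± 0.11 without HDCA (adjusted p = 0.0372) and 0.41 ± 0.11 with it (adjusted p = 0.0471). Hadhb was lower in level, with means of 19.3 ± 4.84 FPKM in BDL and 26.7 ± 1.499 in MDR, and its differences of 0.48 and 0.50 were close to those of Hadha but not called (adjusted p = 0.0628 and 0.076). Of the 75-base windows of the longest Hadhb transcript, 57.2% also occur in another annotated gene, Gm13910, so the level of Hadhb is uncertain. The 2 genes are transcribed away from each other from starts 86 bases apart. The pair shares the DNA between their first exons, and the 68 bases of it that lie in the RefSeq promoter window of Hadha are shown, next to the Hadha exon and short of the Hadhb exon. The heading names the stretch by rising coordinate, from Hadha towards Hadhb. The letters are written 5′ to 3′ on the Hadha strand, GRCm38.p6, so they run from the Hadhb side to the Hadha exon. They hold no AGGTCA.
Hadha towards Hadhb, chr5:30155163-30155230, minus strand: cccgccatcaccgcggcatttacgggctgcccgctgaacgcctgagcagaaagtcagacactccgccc

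Acaa2, the mitochondrial thiolase of the last step, was the most abundant mitochondrial member. It read 346, 269 and 272 FPKM in BDL, 305, 368 and 294 in BDL_H, 469, 373 and 397 in MDR and 401, 367 and 424 in MDR_H. The untreated groups were apart (0.48 ± 0.15, adjusted p = 0.0472), while under HDCA the lowest MDR_H library, at 367.1, lay just under the highest BDL_H library, at 367.6 (0.31 ± 0.15, adjusted p = 0.198). Hadh, the hydroxyacyl-CoA dehydrogenase of shorter chains, had means of 135 ± 37.2 FPKM in BDL and 172 ± 15.2 in MDR and was not called (adjusted p = 0.143).

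Decr1 and Eci1 prepare unsaturated fatty acids for the spiral by reducing and moving double bonds. Decr1 was at 46.3, 36.3 and 38.4 FPKM in BDL, 39.8, 49.8 and 37.9 in BDL_H, 70.8, 65.2 and 67.1 in MDR and 67.4, 62.5 and 75.3 in MDR_H. All 6 MDR and MDR_H values lay above all ligation values, and Decr1 had the smallest adjusted p of any member in both comparisons (0.74 ± 0.14, adjusted p = 0.00692, and 0.68 ± 0.14, adjusted p = 0.0189). Eci1 was at 73.8, 64.1 and 62.5 FPKM in BDL, 69.8, 71.2 and 67.7 in BDL_H, 111, 88.7 and 106 in MDR and 97.9, 96.3 and 109 in MDR_H. Again no ligation library reached an MDR library (0.60 ± 0.12, adjusted p = 0.00912, and 0.53 ± 0.12, adjusted p = 0.0261).

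Electrons from the dehydrogenases pass through the flavoprotein ETF, made of Etfa and Etfb, to the Etfdh enzyme of the inner membrane. Etfa was at 21.95, 17.7 and 18.8 FPKM in BDL, 20.3, 17.6 and 19.0 in BDL_H, 30.4, 29.0 and 28.1 in MDR and 31.4, 25.3 and 28.1 in MDR_H, with no overlap and a call in both comparisons (0.56 ± 0.12, adjusted p = 0.0119, and 0.55 ± 0.12, adjusted p = 0.0244). Etfdh was at 85.2, 69.8 and 70.9 FPKM in BDL, 80.7, 114 and 71.7 in BDL_H, 125, 116 and 108 in MDR and 119, 120 and 126 in MDR_H. Its highest BDL_H value, in replicate 2, came close to the MDR_H range, and it was called without HDCA (0.63 ± 0.16, adjusted p = 0.0256) and not with it (0.48 ± 0.16, adjusted p = 0.0837). Etfb had means of 194 ± 34.7 FPKM in BDL and 255 ± 10.7 in MDR and was not called (adjusted p = 0.103); 66.3% of its windows occur in Gm45233 too, so its level is uncertain.

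**Figure D2:**
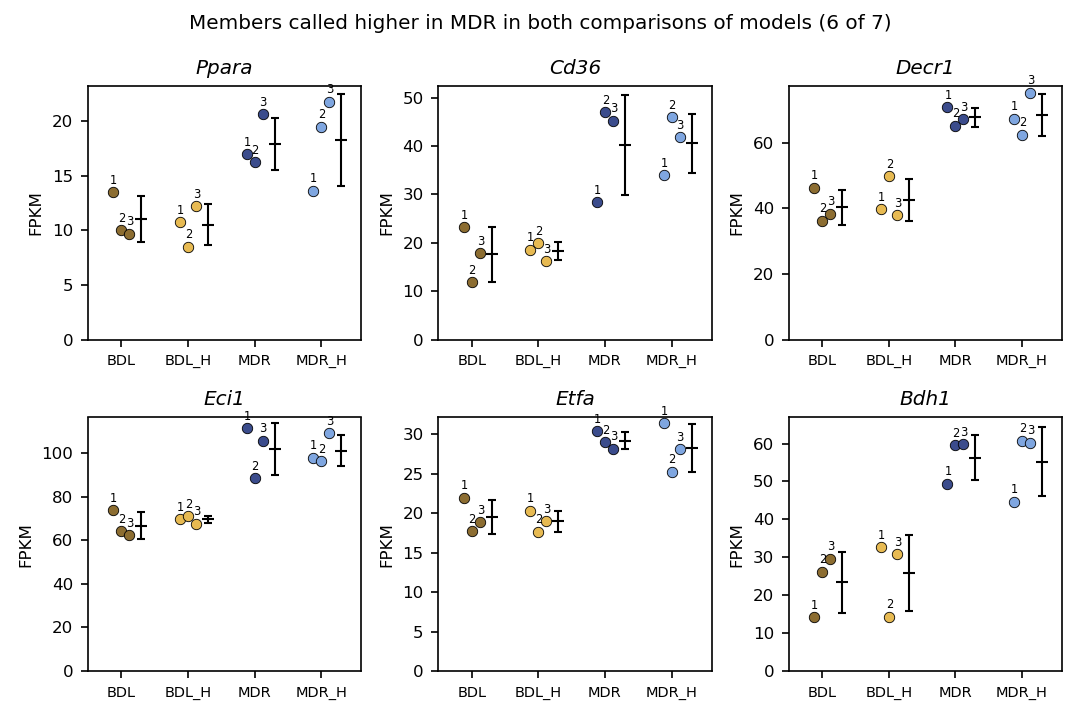
FPKM of 6 members called in both comparisons of models, with 1 point per library numbered by replicate and the group mean ± SD (n = 3) to the right of the points. In each panel the 3 MDR libraries lie above the 3 BDL libraries and the 3 MDR_H libraries above the 3 BDL_H libraries.

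Of the 6 peroxisomal members, 0 were called in either comparison. Crot, which puts shortened chains on carnitine so that they can leave the peroxisome, had means of 109 ± 40.7 FPKM in BDL, 114 ± 33.1 in BDL_H, 187 ± 12.6 in MDR and 198 ± 4.57 in MDR_H. Its groups did not overlap in either comparison, and its differences of 0.85 and 0.84 missed the threshold (adjusted p = 0.0586 and 0.0825). Ehhadh, the bifunctional enzyme, had 76.0 ± 24.8 FPKM in BDL and 97.4 ± 2.96 in MDR. The thiolase Acaa1b had 151 ± 96.5 FPKM in BDL and 262 ± 111 in MDR, the widest spread of the group. Eci2, an isomerase of unsaturated chains, was at 45.5, 30.96 and 27.4 FPKM in BDL, 32.2, 75.2 and 35.0 in BDL_H, 37.9, 34.2 and 36.6 in MDR and 33.0, 34.5 and 41.7 in MDR_H, so that only BDL_H replicate 2 stood out. Acaa1a, the near copy of Acaa1b, was at 65.1, 51.7 and 44.2 FPKM in BDL, 46.5, 59.5 and 49.95 in BDL_H, 70.2, 48.0 and 51.8 in MDR and 49.5, 43.8 and 43.9 in MDR_H, with overlap in each comparison. Pex11a, a peroxisome division factor, had 21.8 ± 6.08 FPKM in BDL and 21.9 ± 4.56 in MDR. Under HDCA Acaa1a, Eci2 and Pex11a had negative differences between the models (-0.18, -0.27 and -0.27), of which 0 were called. Acaa1a and Acaa1b share 27.3% and 28.5% of their windows with each other, so how their reads were divided is uncertain.

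The omega-hydroxylases Cyp4a10 and Cyp4a14 were not called, and the SE of each difference between the models exceeded the difference. Without HDCA the differences between the models were -0.06 ± 0.75 and -1.02 ± 1.13, and with HDCA 0.53 ± 0.75 and 0.04 ± 1.13; on the median-of-ratios and quantile scales described below, the last was -0.23 and -0.07. The 4 acyl-CoA thioesterases, which split acyl-CoA back to free fatty acid, lie together within 72542 bases of chromosome 12 (GRCm38, 83987861 to 84060402), and 0 of them were called. Acot1, the cytosolic member, had means of 3.97 ± 1.14 FPKM in BDL and 9.89 ± 4.12 in MDR, and its untreated groups did not overlap (1.09 ± 0.44, adjusted p = 0.107). Acot2, the mitochondrial member, had 1.64 ± 0.18 and 3.17 ± 1.26 FPKM (adjusted p = 0.131). Peroxisomal Acot4 had 5.86 ± 2.00 and 5.78 ± 2.00 FPKM. Shares of 26.4%, 21.2%, 16.5% and 19.1% of the windows of Acot1, Acot2, Acot3 and Cyp4a10 occur in other genes, so these levels are uncertain too.

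Bdh1, the mitochondrial enzyme that interconverts the ketone bodies acetoacetate and hydroxybutyrate, had the largest untreated difference of the called members. Its values were 14.2, 26.2 and 29.7 FPKM in BDL, 32.7, 14.4 and 30.8 in BDL_H, 49.5, 59.6 and 59.8 in MDR and 44.6, 60.7 and 60.2 in MDR_H. BDL replicate 1 and BDL_H replicate 2 were the lowest, and all 6 MDR and MDR_H values were above all ligation values (1.29 ± 0.31, adjusted p = 0.0207, and 1.13 ± 0.31, adjusted p = 0.0492). Pdk4, a kinase that shuts off pyruvate oxidation when fat is burned, had means of 4.26 ± 0.77 FPKM in BDL, 4.61 ± 2.23 in BDL_H, 8.78 ± 1.78 in MDR and 11.8 ± 5.23 in MDR_H. Vnn1, a pantetheinase induced by PPAR alpha, had 9.51 ± 5.84, 9.90 ± 1.84, 20.4 ± 2.09 and 21.9 ± 6.77 FPKM. Neither Pdk4 (adjusted p = 0.0869 and 0.0543) nor Vnn1 (adjusted p = 0.0659 and 0.137) was called.

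**Figure D3:**
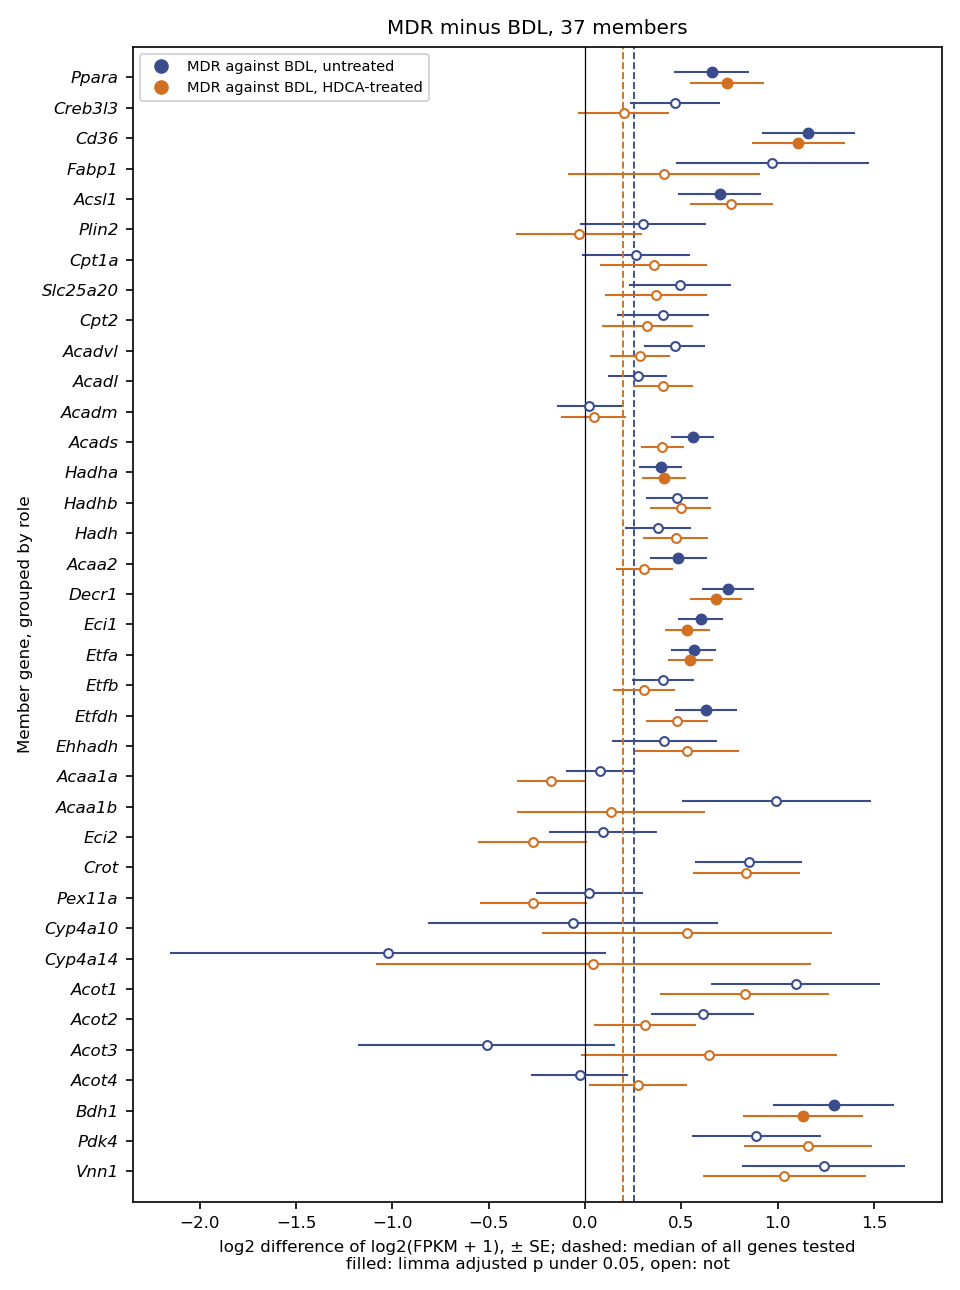
Log2 differences between MDR and BDL (blue, no HDCA) and between MDR_H and BDL_H (orange) for the 37 members, with bars for the SE, filled points for calls and dashed lines at the medians of all genes tested, 0.25 and 0.20. In each comparison 33 members lie above 0 on the FPKM scale; on the median-of-ratios scale 26 and 29 do.

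These counts have to be read against the whole table. On the FPKM scale 83.6% of all genes had a positive untreated difference, as did 33 of the 37 members, and 39.2% of all genes had MDR values wholly above BDL, as did 19 members. With HDCA the shares were 77.0% and 32.4% of genes, against 33 and 15 members. The members that lay above the median of all genes numbered 29 without HDCA and 30 with it. Of the calls over all genes with HDCA, 88.7% were higher. Scaling the libraries by the median of their ratios moved the median of all genes to -0.05 without HDCA and -0.03 with it and this share to 47.2%, and quantile normalization moved the share to 52.9%. On those scales the members' medians exceeded those of all genes by 0.16 and 0.16 and by 0.32 and 0.26, and Bdh1 was the only member called, with HDCA on the median-of-ratios scale alone. None of the 11 changed direction, the smallest value being 0.025 for Hadha without HDCA on the median-of-ratios scale. Acadm fell on the other side of 0 in both comparisons on both scales, Plin2, Cpt1a and Acadl without HDCA and Creb3l3 and Acaa1b with HDCA on the median-of-ratios scale, and Acaa1a, Eci2 and Pex11a without HDCA on both.

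Calls also moved with single libraries. A block on the replicate number was also fitted, although no label links same-numbered libraries of the models. Their deviations correlated at -0.201, -0.149 and -0.244 between BDL and MDR. Between BDL_H and MDR_H they correlated at -0.034, -0.196 and -0.228. With this block, 7 members were called without HDCA. Ppara, Acsl1, Hadha and Acaa2 were lost, at limma adjusted p = 0.0575, 0.0801, 0.0683 and 0.0666. With HDCA 4 were called, and Ppara, Hadha and Bdh1 were lost, at 0.0611, 0.0853 and 0.065. Of all 10805 genes, the block fit called 1254 higher and 97 lower without HDCA, against 1630 and 116 without the block. With HDCA it called 523 and 66, against 795 and 101. Without both BDL replicate 1 and BDL_H replicate 2, 20 members were called without HDCA and 18 with it, all higher, where 20.6% and 11.8% of genes were called. The 20 included all 11 and added Creb3l3, Cpt2, Slc25a20, Acadl, Acadvl, Hadh, Hadhb, Etfb and Crot. The 18 held 6 of the 7 called under HDCA and not Ppara (adjusted p = 0.0545 in limma). Leaving out MDR replicate 1 as well, the library of its model at 20.1 FPKM of Y-linked genes, gave 22 and 19. Leaving out a single library gave other counts. For these fits, and for the 22 and 19, the shares of all genes called are not given here. The calls may therefore have moved over the whole table. Without HDCA, 6 members were called without BDL replicate 2, 7 without BDL_H replicate 1 and 7 without MDR_H replicate 2, all among the 11. Without MDR replicate 1, 2 or 3 the counts were 7, 4 and 5, of which Acot2, without MDR replicate 1, was not among the 11. With HDCA, 15 members, including all 7, were called without BDL replicate 1, and 4, all among the 7, without BDL replicate 2 or 3 or MDR replicate 2 or 3. The calls with HDCA were Etfa and Pdk4 without BDL_H replicate 1, Decr1 and Etfdh without BDL_H replicate 2, and Decr1 and Etfa without MDR_H replicate 2. They were Acsl1, Pdk4 and Ppara without MDR_H replicate 1, and 0 members were called without BDL_H replicate 3 or MDR_H replicate 3.

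Other genes of the pathway were read from a list of 103 non-members, of which 96 were tested on the FPKM scale. Without HDCA 11 of the 96 were higher and 1 lower in the libraries labelled MDR, where 15.1% of all genes tested were higher and 1.07% lower. With HDCA 6 were higher and 0 lower, where 7.36% and 0.935% of all genes were. The medians of the list were 0.22 and 0.15, below those of all genes. Acyl-CoA dehydrogenases outside the member set had the smallest p without HDCA. Acad8, of valine breakdown, had a difference of 0.60 ± 0.12 without HDCA (adjusted p = 0.00962) and 0.66 ± 0.12 with it (adjusted p = 0.0132), and Acad11 had 0.60 ± 0.12 (adjusted p = 0.0106) and 0.56 ± 0.12 (adjusted p = 0.0253). Decr2, the peroxisomal relative of Decr1, had 0.42 ± 0.11 (adjusted p = 0.0266) and 0.65 ± 0.11 (adjusted p = 0.00902). Acadsb, for short branched chains, had 0.66 ± 0.14 with HDCA (adjusted p = 0.0231), and Aldh3a2, a fatty aldehyde dehydrogenase, 0.99 ± 0.21 (adjusted p = 0.0221). The peroxisomal transporter Abcd3 was higher without HDCA (0.62 ± 0.14, adjusted p = 0.0156). The 1 lower gene was Fgf21, a fasting hormone and PPAR alpha target that is also induced by cell stress. It was at 16.7, 10.7 and 6.13 FPKM in BDL, 2.26, 1.85 and 2.14 in BDL_H, 0.45, 0.76 and 3.88 in MDR and 0.49, 2.04 and 5.92 in MDR_H, so that the 3 BDL libraries stood above all others (-2.30 ± 0.56, adjusted p = 0.0203). Fgf21 was also lower in BDL_H than in BDL without overlap (-1.89 ± 0.56), as were 1.59% of all genes tested. That difference was not called.

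HDCA was not seen to change the members in ligated livers. Of the 37, 0 were called, as were 0% of all genes (2.25% had an unadjusted p under 0.05 in limma, and 0 members did), and no member had groups free of overlap, which 3.43% of all genes had with HDCA higher and 1.59% with HDCA lower. The differences were above 0 for 27 of the 37, against 58.8% of all genes, with medians of 0.09 and 0.03. The 4 members with the smallest p were Etfdh (0.21 ± 0.16), Eci2 (0.37 ± 0.28), Creb3l3 (0.27 ± 0.23) and Fabp1 (0.55 ± 0.50), and a library that stood apart held an extreme for each: Eci2, Creb3l3 and Etfdh were highest in BDL_H replicate 2, and Fabp1 was lowest in BDL replicate 1. Without the respective library, Eci2 and Creb3l3 were at -0.01 and -0.03 and Fabp1 at -0.11. Ppara differed by -0.07 ± 0.19, and without both libraries that stood apart by 0.20. For 14 of the 37 members the sign changed without those 2 libraries. A missed threshold does not show equal levels, and the precision varied widely: the 95% interval of the difference reached 0.25 to either side for Acads and Hadha, 0.43 for Ppara, 0.53 for Cd36 and 2.48 for Cyp4a14.

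In the libraries labelled MDR and MDR_H, 0 members were called for HDCA, as were 0% of all genes (0.565% with an unadjusted p under 0.05 in limma, and 0 members). The members' median was 0.01 and that of all genes -0.04, and 22 of the 37 were above 0, against 36% of genes. Acads and Acadvl were lower in all 3 MDR_H libraries than in any MDR library (-0.15 ± 0.11 and -0.11 ± 0.16), which held for 4.6% of all genes; 0 members and 1.35% of genes were wholly higher. The other members of smallest p were Acaa1a (-0.29 ± 0.18), Cyp4a14 (1.21 ± 1.13) and Acsl1 (0.21 ± 0.22). Ppara differed by 0.01 ± 0.19. Where same-numbered libraries are taken as pairs, Cyp4a10, Cyp4a14 and Acot3 were higher with HDCA in 3 of 3 pairs. Acadvl, Acads and Acaa1a were higher in 0 of 3, 24 members in 2 and 7 in 1. These numbers were not counted over all genes. Pair 1 sets MDR replicate 1, at 20.1 FPKM of Y-linked genes, against a library at 0.016, so HDCA and sex cannot be told apart there. In pairs 1, 2 and 3 Cyp4a14 differed by 2.71, 0.06 and 0.87. Cyp4a10 differed by 0.84, 0.38 and 0.82, and Acot3 by 0.76, 0.41 and 0.31. With the pair as a block 0 members were called. The difference between the 2 HDCA effects was called for 0 members and 0% of genes (1.85% with an unadjusted p under 0.05 in limma, and 0 members), with medians of -0.07 for both. The HDCA courses lasted 4 days in one model and 21 days in the other.

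**Figure D4:**
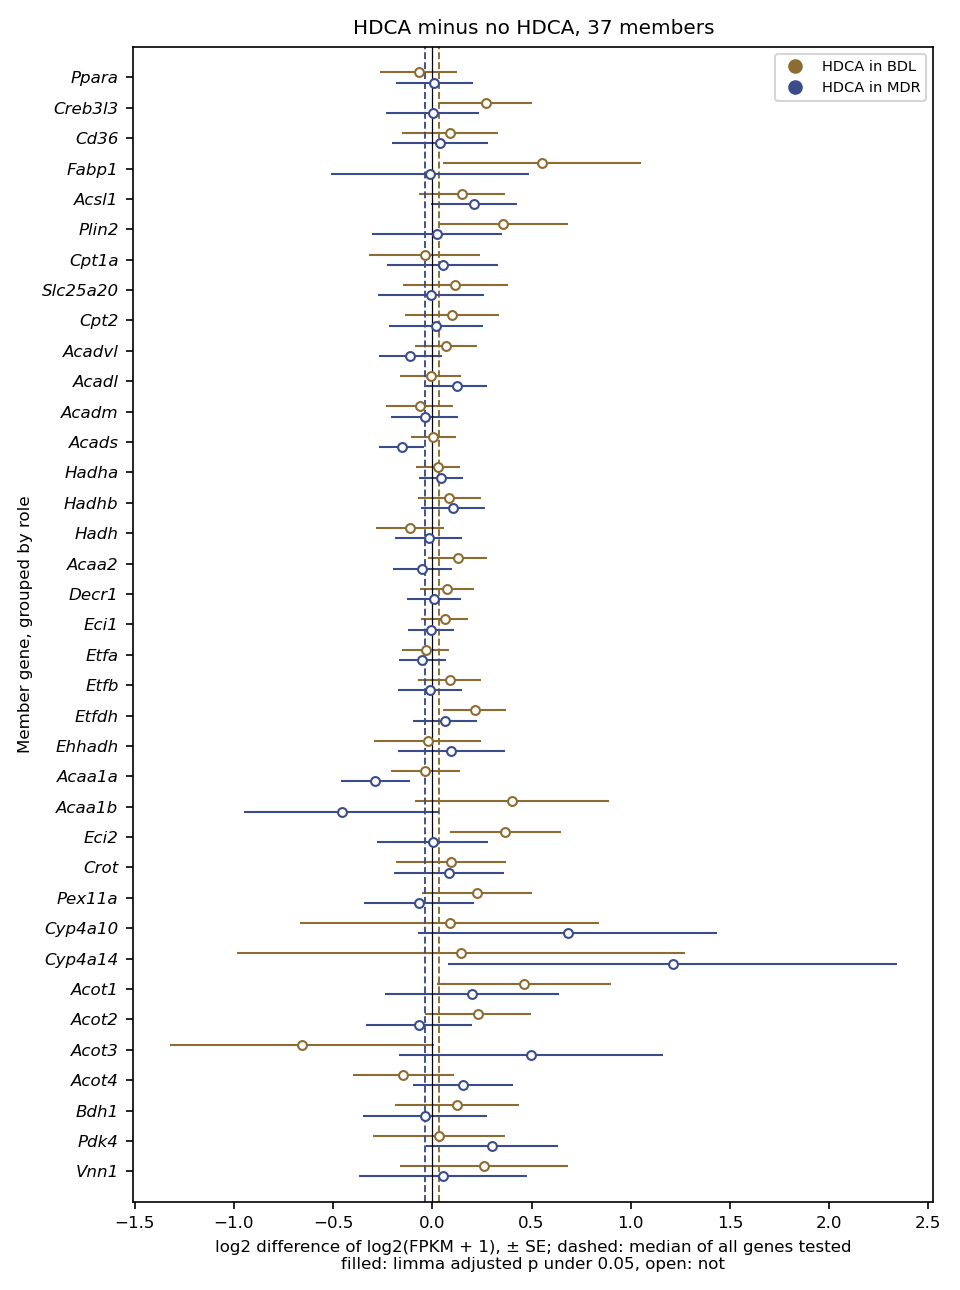
Log2 differences between HDCA-treated and untreated libraries in the ligation model (brown) and in those labelled MDR (blue) for the 37 members, with bars for the SE and dashed lines at the medians of all genes tested, 0.03 and -0.04. No point is filled, as 0 members were called, and the bars are longest for Cyp4a14, Cyp4a10 and Acot3.

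The members differed widely in how much they varied over the 12 libraries. The highest value was less than 2 times the lowest for 14 members, mostly the mitochondrial enzymes, with Acadl the steadiest at 1.56 times. It was 2 to 5 times for 15 members and 5 times or more for 8: Acot3 (95.5), Cyp4a14 (49.1), Vnn1 (9.10), Cyp4a10 (8.44), Acaa1b (8.28), Acot1 (7.46), Fabp1 (6.94) and Pdk4 (5.70). Acot3 was the only member under 100 recovered reads in a library, with 9 to 951, so its low values carry a large counting error.

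BDL replicate 1 and BDL_H replicate 2 held the extremes of several of these members. Cyp4a10 and Acot3 were chosen for full values after those had been seen. Cyp4a10 was at 257, 48.7 and 30.4 FPKM in BDL, 43.4, 185 and 57.5 in BDL_H, 39.2, 82.4 and 104 in MDR and 71.2, 108 and 184 in MDR_H. Cyp4a14 was at 373, 52.1 and 31.9 FPKM in BDL, 58.0, 337 and 43.2 in BDL_H, 7.60, 85.2 and 104 in MDR and 55.2, 88.8 and 190 in MDR_H. The 2 genes start 22122 bases apart on chromosome 4 and were high in the same libraries. Ppara did not follow them: it was highest of the ligation libraries in BDL replicate 1 (13.4 FPKM) but lowest of all 12 in BDL_H replicate 2 (8.48 FPKM). Acot3 was at 9.33, 1.45 and 1.25 FPKM in BDL, 1.73, 0.87 and 1.84 in BDL_H, 0.10, 3.20 and 3.27 in MDR and 0.86, 4.60 and 4.30 in MDR_H, so it was high in BDL replicate 1 and not in BDL_H replicate 2. MDR replicate 1, at 20.1 FPKM of Y-linked genes, held the lowest Cyp4a14 and Acot3 values of all 12.

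**Figure D5:**
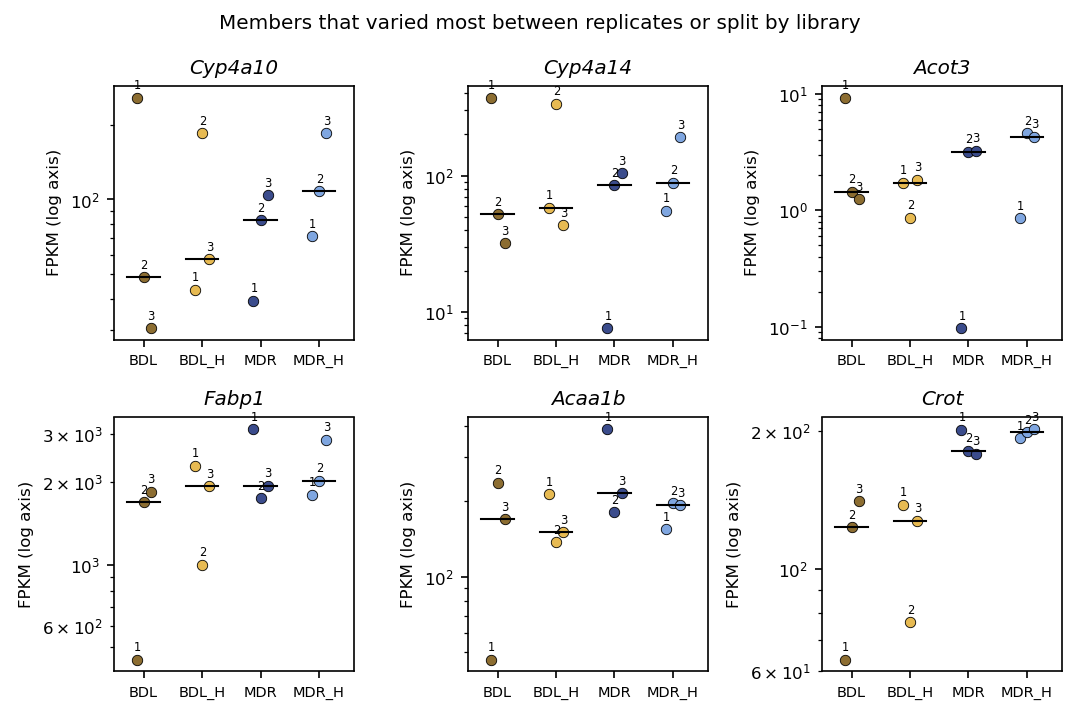
FPKM on log axes for 6 members of wide spread, with 1 point per library numbered by replicate and a line at the group median. BDL replicate 1 and BDL_H replicate 2 are the highest ligation libraries for Cyp4a10 and Cyp4a14 and the lowest for Fabp1, Acaa1b and Crot, and MDR replicate 1 is the lowest of all for Cyp4a14 and Acot3.

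The same 2 libraries split the members in both directions. They were the 2 highest of the 6 ligation libraries for 22 of the 37 members (59.5%), against 6.18% of all genes tested. The 22 comprised 9 of the 10 mitochondrial enzymes (all but Hadh), the whole carnitine shuttle, both omega-hydroxylases, Etfb, Etfdh, Acaa1a, Eci2, Pex11a, Creb3l3, Cd36 and Acsl1. They were the 2 lowest for Fabp1, Ehhadh, Acaa1b, Crot, Bdh1 and Vnn1, 6 members (16.2%), against 52.5% of all genes. The libraries were picked out by their low median over all genes. Their summed FPKM of macrophage markers was low as well, at 110.1 and 142.1 against 300.3 to 358.6 in the other 4. They were also lowest for the cholangiocyte, lymphocyte and erythroid sums. Their hepatocyte sums, 50405 and 53858, and neutrophil sums, 24.0 and 68.7, lay within the range of the other 4. Endothelial and stellate sums were lowest in BDL replicate 1 but not low in BDL_H replicate 2. The part of this in the ranks was not tested. Among the libraries labelled MDR or MDR_H, MDR_H replicate 3 was the highest of 6 for 18 members and MDR_H replicate 1 the lowest for 14. These 18 and 14 were not set against counts over all genes, so they may hold for the whole table.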

How the data were processed

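The authors deposited FPKM values for 16970 genes in 12 liver libraries. Per the labels' protocols, RNA was extracted with TRIzol, and polyA libraries were made with the VAHTS Universal V6 kit. The build was GRCm38 (mm10), per the submitters' processing notes, which list fastp, CASAVA 1.8, featureCounts 1.5.0-p3, HISAT2 2.0.5 and DESeq2 1.20.0 without roles; the sources used here do not say which annotation release was counted or whether strand was used. Groups came from the titles. Values were taken as log2(FPKM + 1), which understates changes of low genes. limma 3.58.1 (R 4.3.3, trend) was fitted to the 4 group means with 8 residual degrees of freedom, tested on simulated data. Tests were two-sided, adjusted by Benjamini-Hochberg over 10805 genes, and called under 0.05. Whole reads were recovered for 16968 genes (99.99%, within 0.02 of a read) and tested with voom as an alternative. Promoters came from RefSeq, GRCm38.p6, and windows from GENCODE transcripts. Deviations of same-numbered libraries correlated at 0.438, 0.312 and 0.548 between MDR and MDR_H, so those numbers were taken as pairs from the values alone; between BDL and BDL_H they correlated at -0.43, -0.382 and 0.431 and were not. Values in every library are given for Ppara, for the 4 members of smallest p in each HDCA comparison and for members called between models; of the pathway list, up to 4 called genes of smallest p per comparison of models are named. Members, lists and rules were chosen with earlier results of these data known.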

Additional observations from a re-analysis of the deposited data

How the results depend on the processing

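The counts of members called between the models, 11 without HDCA and 7 with it, were 7 (6 of the 11, and Pdk4) and 2 with only the libraries compared in the fit, 7 and 4 with the replicate block, 1 and 0 after quantile normalization, 1 and 1 after median-of-ratios scaling, and 26 and 24 with limma array weights. Leaving out 1 library at a time gave 4 to 15 and 0 to 15; the 0 came without BDL_H replicate 3 and without MDR_H replicate 3, the 4 without MDR replicate 2. Without both BDL replicate 1 and BDL_H replicate 2 the counts were 20 and 18, without these and MDR replicate 1, an alternative chosen after seeing the data, 22 and 19, and with median-of-ratios scaling added to the former, likewise chosen afterwards, 6 and 7. Over all genes, 8.71% and 6.65% were called after quantile normalization and 10.4% and 6.52% after median-of-ratios scaling. With array weights 45.8% and 25.5% were called. These shares are not given here for the fits without 1 library, so a changed count of members may be a change over the whole table. The members' medians moved to 0.298 and 0.253 after quantile normalization and to 0.114 and 0.134 after median-of-ratios scaling. A pseudocount of 0.1, other filters on low values and voom gave 8 to 11 and 5 to 6. For HDCA, 0 members were called in either model under every alternative run. For HDCA in BDL the direction reversed for Fabp1 without BDL replicate 1 (-0.105; up to 0.911 without another library) and for Eci2 (-0.012; up to 0.588) and Creb3l3 (-0.028; up to 0.493) without BDL_H replicate 2. For the other effects the cause was not tested. Of 24 alternatives without HDCA, Decr1 and Etfa were called in 22, Acads, Bdh1 and Eci1 in 21, Cd36 in 20, Etfdh in 17, Hadha in 11, Ppara in 10, and Acaa2 and Acsl1 in 7. Of 24 with HDCA, Decr1 was called in 18, Cd36 and Etfa in 16, Eci1 in 14, Hadha in 7, and Bdh1 and Ppara in 6.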
